A study of Homo sapiens with 19 samples.

Results

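A precursor hairpin of a microRNA (miRNA) can give mature miRNAs from both of its arms, named 5p and 3p after the side of the hairpin. The minor arm is the one of which fewer copies are counted. The minor arms described here were chosen by measured values: raw counts were summed over all libraries but S100 replicate 1, names ending in 5p or 3p whose other arm was also counted were taken, and the arm with the lower sum was kept if that sum was 20 or more. Names numbered 3000 and above, and miR-194, miR-371a, miR-373, miR-423, miR-483 and miR-1228, were left out. Of 1043 miRNAs with a count, 853 had a name ending in 5p or 3p, and 255 hairpins had both arms counted. Of these hairpins 98 were left out for a sum under the minimum, 72 for the number and 6 by name, which left 79 minor arms, 40 on the 5p side and 39 on the 3p side. Just inside the minimum lay let-7i-3p (23 counts), miR-146b-3p (21 counts) and miR-660-3p (21 counts). Just outside it lay miR-365b-5p (19 counts), miR-1247-3p (18 counts) and miR-342-5p (17 counts).

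In animals the enzyme Dicer cuts the hairpin to a short duplex of both arms. An Argonaute protein takes up one strand, the guide, and the other strand is usually discarded. The strand whose 5′ end is less tightly paired, and which starts with U or A, tends to be loaded. The bases next to the 5′ end of the loaded strand, the seed, select target messenger RNAs, so the 2 arms of a hairpin as a rule have different targets. The ratio between arms can differ between tissues.

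Small RNA was sequenced from Caco-2, an established line of human colorectal epithelial cells labelled wild type, and from its culture medium. Cells grown with 20% serum to 80% confluence were held for 24 hours in medium without serum or antibiotics, in all groups. The groups were cell lysate (3 libraries), RNA of the cleared medium, called total exRNA for extracellular RNA (4 libraries), the pellet of a 40000 xg spin, called P40 (4 libraries), the pellet of the next spin at 100000 xg, called P100 (4 libraries), and the supernatant left after it, called S100 (3 libraries used). The 2 liquid fractions, total exRNA and S100, went through a nucleic acid precipitation ahead of Trizol, whereas cells and both pellets were extracted in Trizol alone. In comparisons across that line, fraction and RNA preparation cannot be told apart. S100 against total exRNA and P100 against P40 compare libraries of the same preparation.

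Total counts per library ran from 37453 to 157051 in lysate, 34427 to 61622 in total exRNA, 10490 to 26096 in P40, 10017 to 27027 in P100 and 198878 to 225290 in S100. S100 replicate 1 held 48 counts and was left out. All 6 epithelial marker miRNAs fixed for the labelled cell type were detected in every group, at a summed 2.48 to 5.40% of counts. Of 9 markers of other cells, 5 were detected in lysate, with miR-451a, miR-144-3p, miR-223-3p and miR-1-3p at 0, and 8 or 9 in each extracellular group. Their summed level was 0.0294 to 0.0636% in lysate and 0.0595 to 0.286% in the medium fractions. Their part in the results was not tested.

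Because S100 libraries held 52.0% of all counts, the rule read mainly S100. When the sums were taken without S100, 57 minor arms passed and 52 of the 79 were among them. For 21 of the 79 the sum outside S100 was under the minimum. For the other 6 hairpins, miR-193a, miR-574, miR-9, miR-30a, miR-625 and miR-671, the other arm was the lower one outside S100, so a low share in S100 was fixed by the rule. Differences that involve S100 are therefore tested below only for arms that the sums without S100 also name. The others are described. Among arms called lower than in lysate, miR-27a-5p and miR-141-5p reached the minimum only with lysate counted. They held 56 and 21 counts in lysate, 4 and 10 in total exRNA, 3 and 1 in P40, 0 and 2 in P100, and 1 and 0 in S100. Their lower ratios against lysate are thus not independent of the rule and are described without a p-value.

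Mature sequences of the arms on which the results turn are given first, from RefSeq annotation of GRCh38.p14. Each is written 5′ to 3′ in lower case, with the seed (bases 2 to 8) in capitals. The first set shows hairpins in which the minor arm held a large share, close to or above that of the major arm, in the mean of lysate or of S100, with the minor arm named first. These are miR-455, miR-501, miR-574, miR-338, miR-671 and miR-9. Other such hairpins, among them miR-193a, miR-151a and miR-625, are described below without sequences.
miR-455-5p: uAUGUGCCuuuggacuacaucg
miR-455-3p: gCAGUCCAugggcauauacac
miR-501-5p: aAUCCUUUgucccugggugaga
miR-501-3p: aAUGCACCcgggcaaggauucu
miR-574-3p: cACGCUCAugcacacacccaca
miR-574-5p: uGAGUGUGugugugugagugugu
miR-338-5p: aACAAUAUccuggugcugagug
miR-338-3p: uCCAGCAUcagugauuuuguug
miR-671-3p: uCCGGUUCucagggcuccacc
miR-671-5p: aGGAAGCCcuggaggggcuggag
miR-9-5p: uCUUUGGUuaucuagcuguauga
miR-9-3p: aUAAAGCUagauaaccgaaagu

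The second set is shown because a minor arm carries the same seed as the major arms of related hairpins. miR-106b-5p, miR-17-5p and miR-93-5p share AAAGUGC, but only miR-106b-5p was the minor arm of its hairpin. The third set is shown because miR-200a-5p, miR-200b-5p, miR-27a-5p and miR-27b-5p were lower in total exRNA relative to their major arms. The minor arms miR-200a-5p and miR-200b-5p share AUCUUAC, and the major arms miR-27a-3p and miR-27b-3p, shown for comparison, share UCACAGU. miR-378a-5p was higher in total exRNA relative to its major arm.
miR-106b-5p: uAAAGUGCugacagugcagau
miR-17-5p: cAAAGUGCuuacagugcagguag
miR-93-5p: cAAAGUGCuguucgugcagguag
miR-106b-3p: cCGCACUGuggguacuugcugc
miR-17-3p: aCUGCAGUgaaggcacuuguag
miR-200a-5p: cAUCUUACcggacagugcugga
miR-200b-5p: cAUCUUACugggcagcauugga
miR-27a-3p: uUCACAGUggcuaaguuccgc
miR-27b-3p: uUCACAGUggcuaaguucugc
miR-27a-5p: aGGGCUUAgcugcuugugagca
miR-27b-5p: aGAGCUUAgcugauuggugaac
miR-378a-5p: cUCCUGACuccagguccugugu
miR-378a-3p: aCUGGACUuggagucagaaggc

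On GRCh38, with genes from GENCODE 29, the miR-455 hairpin lies at chr9:114209434-114209529 on the plus strand in an intron of COL27A1. The miR-574 hairpin lies at chr4:38868032-38868127 on the plus strand in an intron of FAM114A1, and miR-338 at chr17:81125883-81125949 on the minus strand in an intron of AATK. The miR-106b hairpin (chr7:100093993-100094074) and the miR-25 hairpin (chr7:100093560-100093643) share an intron of MCM7 on the minus strand. miR-27a lies at chr19:13836440-13836517 on the minus strand next to miR-23a, and miR-378a at chr5:149732825-149732890 on the plus strand in an intron of PPARGC1B.

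Both sequences were found for 68 of the 79 hairpins. The major arm started with U in 31 of them and the minor arm in 19. U stood only on the major arm in 26 hairpins and only on the minor arm in 14. The first 4 bases held more A or U on the major arm in 36 hairpins, more on the minor arm in 16, and equally many in 16. Median length was 22 bases for both arms, and median GC content was 50.0% for minor and 47.8% for major arms. Among minor arms 4 seeds were shared, by 8 arms, and among major arms 12 seeds, by 24 arms. These are descriptions, since the arms were chosen by their counts.

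All 79 minor arms together were a few percent of the counts of their hairpins in every group. Their share of the counts of both arms was 4.69% ± 0.332 (SD, n = 3) in lysate, 3.28% ± 0.434 (n = 4) in total exRNA, 4.01% ± 0.982 (n = 4) in P40, 4.08% ± 0.648 (n = 4) in P100 and 4.01% ± 0.167 (n = 3) in S100. Lysate libraries lay at 4.35 to 5.01% and total exRNA libraries at 2.87 to 3.79%, without overlap. The pellets, at 3.26 to 5.39% in P40 and 3.47 to 4.86% in P100, overlapped both. The order depended on a few abundant hairpins: without the 3 of most counts (miR-22, miR-378a and miR-372), S100 stood at 6.06% ± 0.245 and lysate at 5.27% ± 0.415. No test was made on these sums, since the members were chosen by counts.

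**Figure D1:**
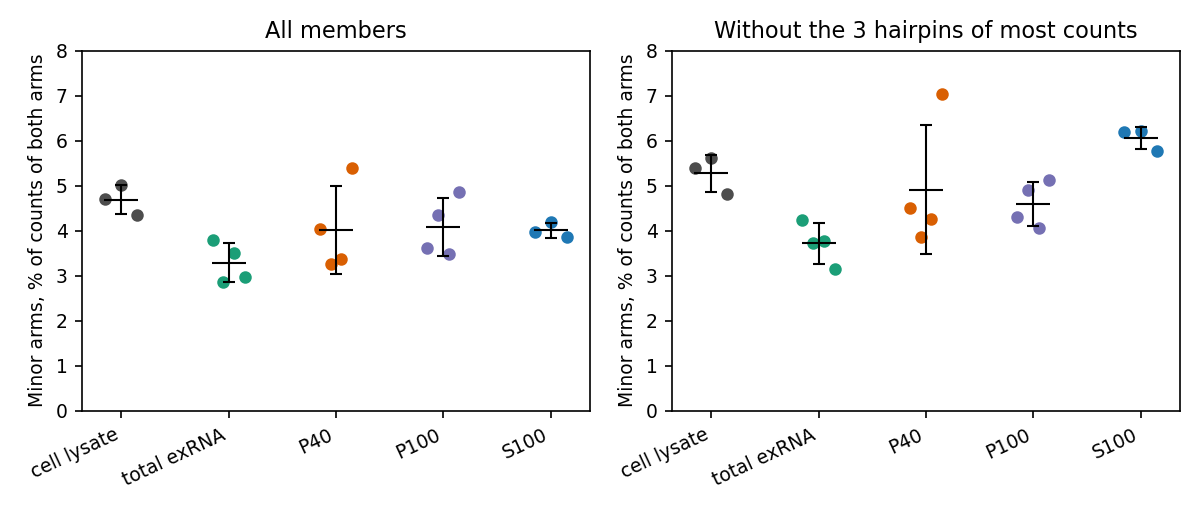
Counts of all 79 minor arms as a percentage of the counts of both arms, by group. Each point is 1 library, the long dash is the group mean and the bar 1 SD; the left panel uses all hairpins and the right panel leaves out miR-22, miR-378a and miR-372. Total exRNA lies below lysate in both panels, while S100 lies below the lysate mean on the left (4.01% against 4.69%) and above it on the right (6.06% against 5.27%).

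Between 59 and 74 of the 79 were detected in a lysate library, 51 to 62 in total exRNA, 41 to 47 in P40, 38 to 47 in P100 and 75 or 76 in S100. Thinned to 10017 counts, libraries of these groups held 41 to 44, 39 to 41, 36 to 45, 33 to 38 and 42 to 45. At equal depth the ranges of lysate, P40 and S100 overlapped. The minor arm outnumbered the major arm in the pooled counts of at least 1 group in 15 hairpins, of which 11 had at least 50 counts of both arms there.

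For each hairpin, the ratio of the minor to the major arm was compared between groups with edgeR's quasi-likelihood test, which compares arms inside a library and so does not depend on scaling between libraries. 51 hairpins, 46 of them with one of the 79 minor arms, had at least 10 counts of both arms together in 3 or more libraries of each group. P-values were adjusted over the 51, a difference was called at an adjusted p below 0.05, and values are log2 differences of the ratio ± SE. The 33 hairpins not tested are described by counts.

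Total exRNA against lysate asked how arms in the medium differ from arms in the cells. The minor arm was relatively lower in total exRNA in 8 of 46 hairpins, where 17.6% of the 51 tested were lower, and relatively higher in 2, where 3.92% of the 51 were higher. The median log2 difference was -0.73 over the 46 and -0.66 over all 51. The lower ones were miR-27a-5p, miR-30b-3p, miR-27b-5p, miR-191-3p, miR-141-5p, miR-200b-5p, miR-200a-5p and miR-25-5p, and the higher ones miR-378a-5p and miR-106b-5p. Of the lower ones, miR-27a-5p and miR-141-5p reached the minimum only through their lysate counts.

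miR-27a belongs to the miR-23a cluster, and its major arm is a known regulator of fat cell differentiation. miR-27a-5p had 3 of 23, 47 of 155 and 6 of 48 counts of its hairpin in lysate replicates 1, 2 and 3. In total exRNA it had 1 of 94, 0 of 177, 1 of 170 and 2 of 97 counts. The groups did not overlap, and the mean share was 18.6% ± 10.1 (SD, n = 3) in lysate and 0.928% ± 0.872 (n = 4) in total exRNA. The log2 difference was -4.84 ± 1.02. This arm reached the minimum sum only through its lysate counts, so no p-value is given for it.

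Its paralog miR-27b-5p had 4 of 60, 28 of 451 and 11 of 166 counts in lysate and 0 of 178, 4 of 406, 2 of 230 and 2 of 199 in total exRNA. The 3 lysate shares lay at 6.5% ± 0.254 (SD) and above all total exRNA shares, whose mean was 0.715% ± 0.480. The log2 difference was -3.15 ± 0.87 (adjusted p = 0.00534). The minor arms of the neighbouring hairpins, miR-23a-5p and miR-23b-5p, were tested but not called, so 2 of 4 minor arms of the miR-23/27/24 hairpins were lower, with a median of -2.22 beside -0.66 over all 51, of which 17.6% were lower. The 2 include miR-27a-5p, which reached the minimum sum only through its lysate counts.

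The miR-200 family holds epithelial cells in their state by repressing the ZEB transcription factors, a role assigned to its 3p arms. Of its 4 tested minor arms 3 were lower in total exRNA and 0 higher, where 17.6% of all 51 were lower. The family median was -2.40 beside -0.66 over all 51. The 3 include miR-141-5p, which reached the minimum sum only through its lysate counts. The family count and median that include miR-141-5p are thus not independent of the rule. miR-200b-5p had 21 of 29, 70 of 231 and 34 of 174 counts in lysate against 7 of 77, 7 of 121, 15 of 114 and 7 of 71 in total exRNA. Lysate replicate 1 stood apart above the other lysate libraries, and the groups did not overlap. The log2 difference was -2.46 ± 0.82 (adjusted p = 0.0218), a call lost without lysate replicate 1.

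miR-200a-5p had 15 of 31, 45 of 214 and 34 of 103 counts in lysate against 12 of 100, 3 of 133, 17 of 153 and 10 of 92 in total exRNA. The log2 difference was -2.35 ± 0.80 (adjusted p = 0.0227), lost without lysate replicate 1 or total exRNA replicate 2. miR-141-5p, of the cluster on chromosome 12, had 3 of 12, 16 of 147 and 2 of 99 counts in lysate against 2 of 162, 1 of 271, 2 of 188 and 5 of 142. Its groups overlapped, and the log2 difference was -2.75 ± 0.96. This arm reached the minimum sum only through its lysate counts, so no p-value is given for it. Its call was lost without lysate replicate 1 or 2, or total exRNA replicate 2 or 3, and with only the 2 groups fitted.

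miR-30b-3p, the minor arm of a member of the miR-30 family, had 9 of 28, 102 of 357 and 21 of 183 counts in lysate against 3 of 72, 9 of 309, 3 of 119 and 1 of 110. All lysate shares were above all total exRNA shares. The log2 difference was -3.42 ± 0.80 (adjusted p = 6.23e-04). miR-25-5p, from the MCM7 intron, differed by -1.91 ± 0.64 (adjusted p = 0.0218), lost without lysate replicate 2 or 3 or total exRNA replicate 3.

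miR-191-3p had 55 counts beside 6511 of its major arm in lysate and 3 beside 3180 in total exRNA, a ratio of 0.112 (exact 95% counting interval 0.0223 to 0.344). Its call was lost with DESeq2 (adjusted p = 0.0533) and without lysate replicate 2 or total exRNA replicate 1 or 2.

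The hairpins with a higher minor arm were miR-378a and miR-106b. miR-378a, carried in a gene of a mitochondrial coactivator, had 3 of 538, 82 of 2115 and 13 of 1108 counts on the 5p arm in lysate. In total exRNA it had 14 of 289, 32 of 538, 27 of 300 and 22 of 196. All total exRNA shares lay above all lysate shares, and the log2 difference was 2.26 ± 0.68 (adjusted p = 0.0115). The call was lost without lysate replicate 1. miR-106b-5p is described with S100. Its call in total exRNA, 2.20 ± 0.80 (adjusted p = 0.0302), was lost with the replicate number as a block (adjusted p = 0.109) and with DESeq2 (adjusted p = 0.067). It was also lost with only the 2 groups fitted (adjusted p = 0.0819), and without lysate replicate 1 or 2 or total exRNA replicate 2 or 3.

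The pellets were compared with the cells in the same way. In P40 the minor arm was lower in 3 of 46 hairpins (7.84% of the 51 tested were lower) and higher in 1 (1.96% of the 51). In P100 it was lower in 2 of 46 (3.92% of the 51) and higher in 1 (1.96% of the 51). The median log2 difference was -0.32 in P40 and -0.86 in P100 over the 46, beside -0.34 and -0.81 over all 51. Pellet libraries were the shallowest of the 5 groups.

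miR-192, abundant in gut, liver and kidney epithelium, was the hairpin lower in both pellets. miR-192-3p had 12 of 70, 22 of 1155 and 31 of 280 counts in lysate. It had 1 of 68, 1 of 81, 0 of 303 and 0 of 79 in P40, and 1 of 73, 0 of 123, 0 of 139 and 0 of 61 in P100. Every pellet share was below every lysate share. The ratio to lysate was 0.0838 (exact 95% counting interval 0.0099 to 0.317) in P40 and 0.0561 (0.0014 to 0.326) in P100. Adjusted p was 0.0439 in P40 and 0.0341 in P100. The P40 call was lost without P40 replicate 3 or 4 or lysate replicate 1 or 3, and the P100 call without P100 replicate 2 or 3 or lysate replicate 1 or 3. A both-arm minimum of 20 also ended the P100 call (adjusted p = 0.0512).

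miR-27a-5p had 0 of 82 counts in P100, which allows a share of up to 3.66%. It was at least 9.00-fold lower relative to its major arm than in lysate, with a floor of 3 counts over the group. This arm reached the minimum sum only through its lysate counts, so no p-value is given for it. Its P100 call was lost without P100 replicate 2 or lysate replicate 2. miR-200b-5p and miR-30b-3p were lower in P40 by -2.87 ± 0.96 and -2.84 ± 0.92 (both adjusted p = 0.0439), and neither held with the replicate block (both adjusted p = 0.0952), nor miR-30b-3p with DESeq2 (adjusted p = 0.0506). Both calls were also lost without P40 replicate 3 or 4 or lysate replicate 1 or 2, and that of miR-200b-5p without P40 replicate 1. The miR-200b-5p call was also lost with only the 2 groups fitted (adjusted p = 0.131) and with a both-arm minimum of 5 (adjusted p = 0.0653). miR-378a-5p was higher in P100, with 7 of 107, 17 of 149, 7 of 157 and 11 of 63 counts, by 2.57 ± 0.71 (adjusted p = 0.0107). Its shares in P100 lay above those of lysate, and the call was lost without P100 replicate 2 or 4 or lysate replicate 1 or 3.

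P100 against P40 gave 0 called hairpins in either direction (0.0% of the 51, both higher and lower). At an unadjusted p below 0.05 edgeR gave 2 of 46 and DESeq2 also called 0. The median log2 difference was 0.16 over the 46 and 0.14 over all 51.

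S100 against lysate set the supernatant beside the cells, across the 2 RNA preparations. The minor arm was higher in S100 in 9 of 46 hairpins (19.6% of the 51 tested were higher) and lower in 9 (23.5% of the 51), with a median of -0.09 beside -0.29 over all 51. Of the 37 tested arms that sums without S100 also name, 5 were higher and 8 lower. The 5 were miR-455-5p, miR-106b-5p, miR-125a-3p, miR-501-5p and miR-17-3p, and the 8 were miR-27a-5p, miR-141-5p, miR-30b-3p, miR-200a-5p, miR-27b-5p, miR-192-3p, miR-372-5p and miR-151a-5p. Of the 8, miR-27a-5p and miR-141-5p reached the minimum only through their lysate counts.

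In miR-455, a hairpin known from cartilage, the order of the arms turned over. miR-455-5p had 1 of 69, 25 of 409 and 7 of 191 counts in lysate and 15 of 87, 5 of 66, 9 of 78 and 8 of 57 in total exRNA. It had 9 of 29, 10 of 16, 4 of 18 and 1 of 9 counts in P40 and 6 of 29, 3 of 16, 5 of 16 and 1 of 10 in P100. In S100 it had 73 of 100, 72 of 107 and 79 of 101. The nominal minor arm thus outnumbered miR-455-3p in each S100 library, with a mean share of 72.8% ± 5.47 (SD, n = 3) against 3.74% ± 2.33 (n = 3) in lysate.

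The ratio differed from lysate by 5.98 ± 0.85 in S100 (adjusted p = 3.97e-09) and by 3.49 ± 0.89 in P40 (adjusted p = 0.00721). S100 also lay above total exRNA, by 4.23 ± 0.77 (adjusted p = 1.27e-05), and above P100, by 3.35 ± 0.84 (adjusted p = 0.00126). Both arms moved, in opposite directions. miR-455-5p was at 97.3 ± 66.7 CPM, counts scaled to a common library total, in lysate and 349 ± 26.0 in S100 (SD, n = 3 each), while miR-455-3p was at 2350 ± 493 and 131 ± 27.7. In a test of each miRNA with scaling between libraries, the log2 change was 1.53 ± 0.65 for miR-455-5p (adjusted p = 0.0458) and -4.34 ± 0.53 for miR-455-3p (adjusted p = 4.72e-07). The call of miR-455-5p, not that of miR-455-3p, was lost without lysate replicate 1 or 3 or any 1 of the S100 libraries (adjusted p 0.0591 to 0.125).

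miR-106b is a paralog of the miR-17/92 cluster, which promotes the cell cycle, and its 5p arm carries the seed of miR-17-5p. miR-106b-5p had 1 of 103, 19 of 565 and 11 of 183 counts in lysate, 8 of 90, 32 of 116, 15 of 129 and 8 of 68 in total exRNA, and 118 of 504, 271 of 519 and 241 of 564 in S100. All S100 shares were above all lysate shares, although total exRNA replicate 2 reached above S100 replicate 2. The S100 difference from lysate was 4.14 ± 0.82 (adjusted p = 1.26e-05). It was 3.03 ± 0.84 from P100 (adjusted p = 0.00313) and 1.93 ± 0.73 from total exRNA (adjusted p = 0.0305, or 0.102 with the replicate block and 0.0632 with DESeq2). This last call was also lost without S100 replicate 3 or 4 or total exRNA replicate 1, 3 or 4. As single miRNAs, miR-106b-5p rose in S100 by 2.95 ± 0.81 on the log2 scale (adjusted p = 0.00281) and miR-106b-3p fell by 1.14 (SE 0.42, adjusted p = 0.0229). The latter call was lost with the replicate block (adjusted p = 0.0854), with DESeq2 (adjusted p = 0.131) and without a low-count filter (adjusted p = 0.586). It was also lost without lysate replicate 2 or S100 replicate 3.

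Its relative miR-17-3p had 2 of 63, 88 of 907 and 30 of 654 counts in lysate and 368 of 1306, 433 of 1827 and 355 of 1513 in S100. The S100 shares, 25.1% ± 2.66, were above every other library. The difference was 2.40 ± 0.86 from lysate (adjusted p = 0.0158, lost without lysate replicate 3) and 3.71 ± 0.97 from P100 (adjusted p = 0.00148). Of the 6 minor arms of miR-17/92 and paralogs tested, 2 were higher and 0 lower in S100 than in lysate, beside 19.6% and 23.5% of the 51, and the median was 1.53 beside -0.29. Near-identical sequences in this family may have exchanged reads.

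miR-501 is one of several hairpins in an intron of CLCN5 on the X chromosome. miR-501-5p had 2 of 45, 26 of 216 and 18 of 78 counts in lysate and 234 of 472, 269 of 576 and 242 of 482 in S100. The arms were close to even in S100, at 48.8% ± 1.87, and 1 P40 library, with 11 of 18 counts, lay higher. The difference from lysate was 2.69 ± 0.86 (adjusted p = 0.00701). Its neighbour miR-532-3p, at 22.3% ± 14.2 in lysate and 42.5% ± 9.27 in S100, did not pass against lysate (adjusted p = 0.0803).

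miR-125a is a relative of lin-4, the founding miRNA of worm development. Its 3p arm had 1 of 98, 14 of 731 and 1 of 256 counts in lysate and 56 of 492, 44 of 482 and 56 of 303 in S100. Every S100 share lay above every share of the other groups. The difference from lysate was 3.54 ± 0.85 (adjusted p = 2.34e-04).

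**Figure D2:**
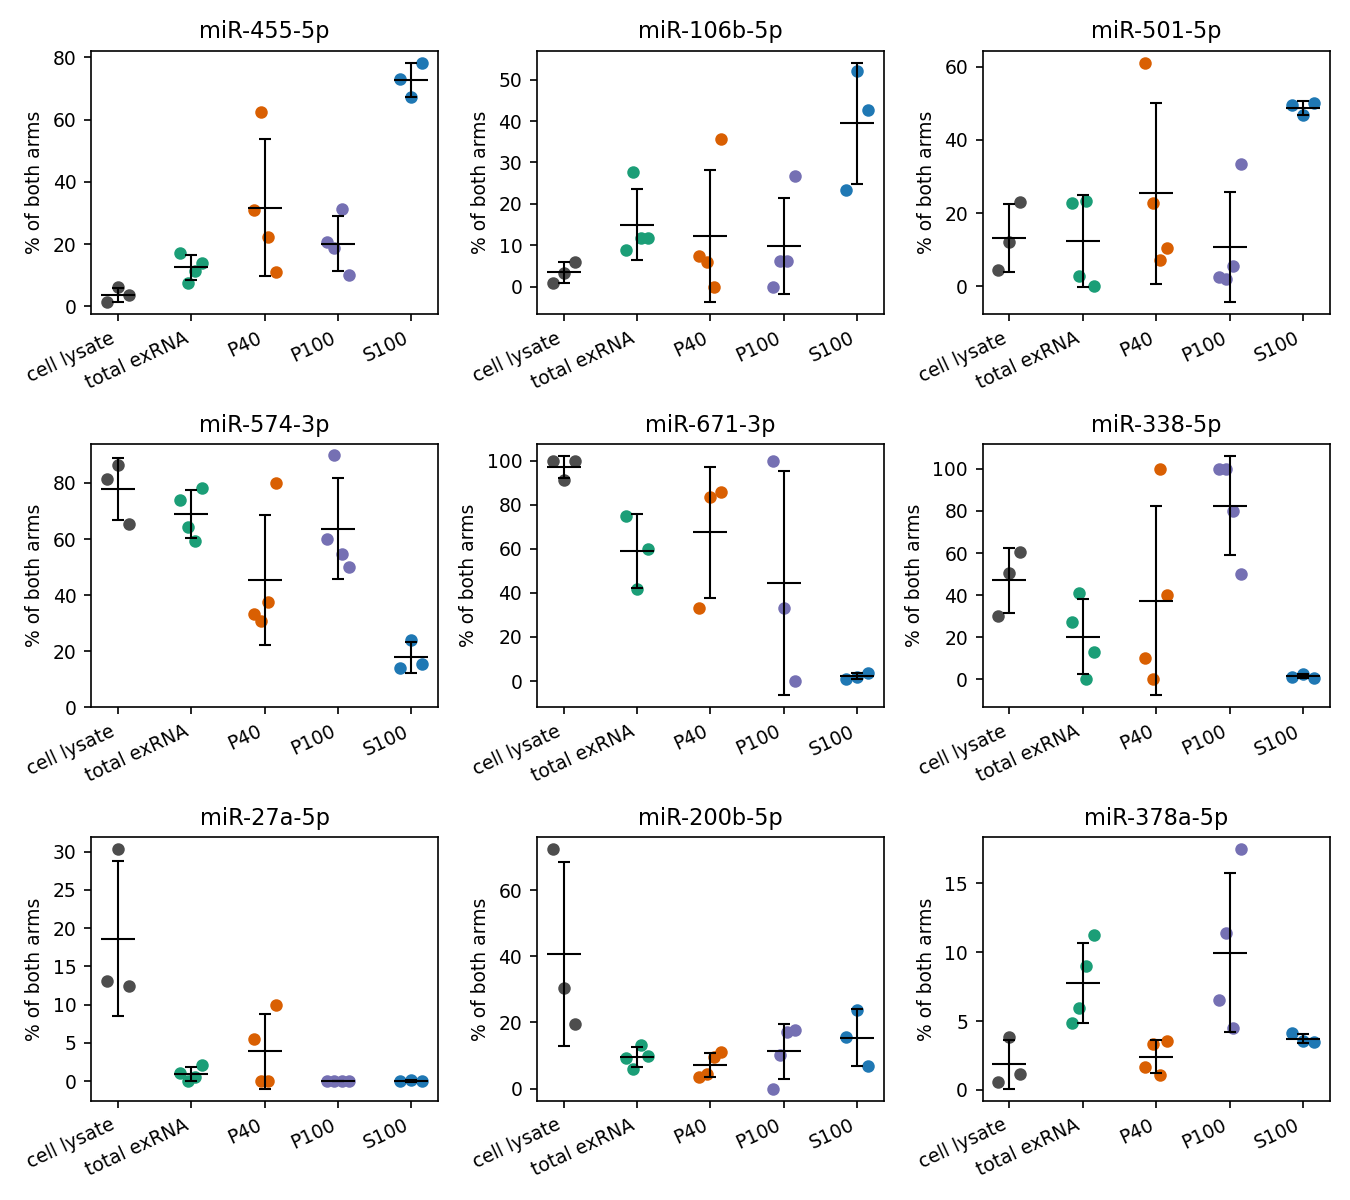
Share of the minor arm among the counts of both arms, in percent, for 9 hairpins. Each point is a library with a count of the hairpin, the long dash is the group mean and the bar 1 SD. The top row shows arms with a high share in S100 (miR-455-5p at 72.8%), the middle row arms with a low share there (miR-671-3p at 2.14%), and the bottom row arms whose share in lysate stood apart from total exRNA.

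Among the lower arms in S100, miR-27a-5p had 0 of 572, 1 of 448 and 0 of 463 counts in S100. Its ratio to lysate was 0.0021 (exact 95% counting interval 5.09e-05 to 0.0121). miR-141-5p had 0 of 1112 counts, which allows a share of up to 0.27%, and was at least 32.8-fold lower relative to its major arm than in lysate. miR-27a-5p and miR-141-5p both reached the minimum sum only through lysate, so no p-value against lysate is given for them. miR-200a-5p had 4 of 163, 4 of 166 and 4 of 120 counts and differed by -3.97 ± 0.89 (adjusted p = 8.83e-05). The arms of miR-27a and miR-141 were thus close to one-sided in S100, with deep counts of the major arm behind them.

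The cluster partner of miR-200a-5p, miR-200b-5p, was not called. With 15 of 96, 31 of 130 and 7 of 103 counts in S100 it overlapped lysate, and the difference of -1.69 ± 0.85 did not pass (adjusted p = 0.0895). miR-27b-5p had 3 of 588, 4 of 480 and 0 of 590 counts and differed by -3.86 ± 0.88 (adjusted p = 9.90e-05). miR-30b-3p differed by -4.20 ± 0.80 (adjusted p = 6.25e-06) and miR-192-3p by -3.12 ± 0.97 (adjusted p = 0.00554). The remaining called arms were miR-372-5p, of a hairpin known from embryonic stem cells, at -2.68 ± 0.78 (adjusted p = 0.0027), and miR-151a-5p at -2.19 ± 0.77 (adjusted p = 0.0153, lost without S100 replicate 2). Outside S100 the arms of miR-151a were near even, with 616 counts on the 5p and 623 on the 3p arm. The rule thus favoured a low share of miR-151a-5p in S100.

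Other arms called in S100 rested on counts that the rule itself found there, and no test is given for them. miR-203a-5p, whose major arm is known from skin differentiation, had 10 of 207, 8 of 340 and 8 of 380 counts in S100. It had 0 of 990 in lysate and 0 of 989 in total exRNA, at least 9.52-fold and 9.51-fold lower relative to the major arm. miR-29a-5p had 9 of 825, 7 of 1267 and 14 of 1275 counts in S100 and 0 of 603 in lysate. miR-30d-3p had 21 of its 25 S100 counts in replicate 4.

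miR-574-3p, the partner of an arm built of GU repeats, had 22 of 27, 90 of 104 and 17 of 26 counts in lysate and 72 of 511, 93 of 388 and 60 of 393 in S100. Its mean share was 77.8% ± 11.0 in lysate, 68.9% ± 8.63 in total exRNA and 17.8% ± 5.40 in S100. miR-671-3p had 11 of 11, 53 of 58 and 4 of 4 counts in lysate and 1 of 113, 3 of 150 and 5 of 142 in S100. The other arm of this hairpin, miR-671-5p, is known for cutting the circular RNA CDR1as. It was at 10.6 ± 18.4 CPM in lysate and 614 ± 46 in S100.

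miR-9, a hairpin known from the nervous system, had 7 of 7, 50 of 56 and 36 of 36 counts on the 5p arm in lysate and 17 of 69, 8 of 135 and 19 of 80 in S100. miR-193a-5p made up 66.3% ± 5.37 of its hairpin in lysate and 44.0% ± 4.44 in S100, and miR-625-3p 57.5% ± 3.90 and 13.4% ± 6.53. In these hairpins the arm with the larger share in lysate was the one with the smaller share in S100, as the rule fixes.

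**Figure D3:**
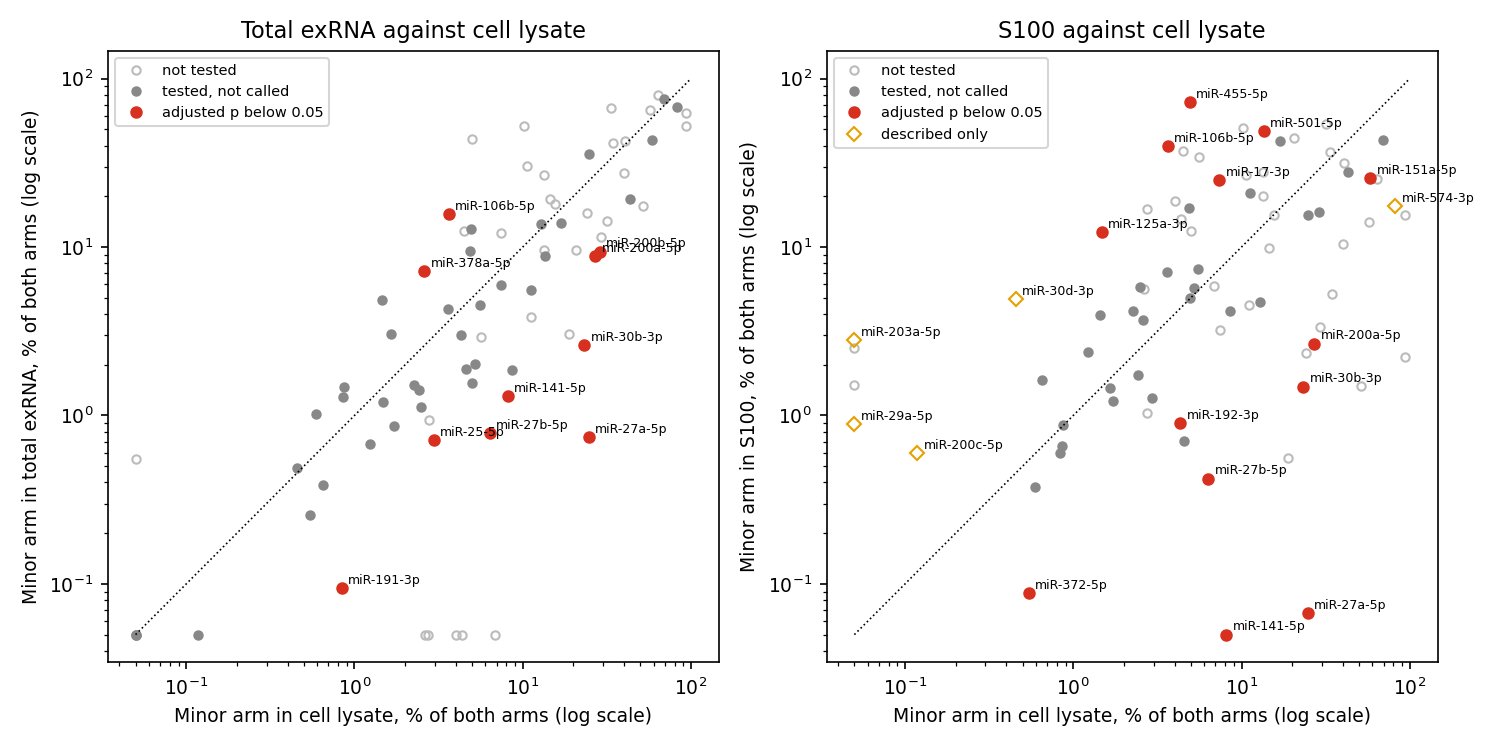
Share of the minor arm in pooled counts of cell lysate (horizontal axis) and of total exRNA (left) or S100 (right), in percent on log axes, 1 point for each of the 79 hairpins. Values under 0.05% are drawn at 0.05%, the dotted line marks equal shares, and red points passed the test of the ratio (10 hairpins on the left and 13 on the right). Diamonds are 5 more arms in S100 that sums without S100 do not name, which are described only. miR-455-5p lies far above the line and miR-27a-5p far below it in S100. The red points include miR-27a-5p and miR-141-5p, which reached the minimum sum only through their lysate counts.

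S100 against total exRNA compared the medium after and before the pellets were taken out, within 1 RNA preparation. The minor arm was higher in S100 in 13 of 46 hairpins (27.5% of the 51 tested were higher) and lower in 4 (11.8% of the 51), with a median of 0.74 beside 0.73 over all 51. Of the 37 arms that sums without S100 also name, 9 were higher and 2 lower. Among the higher ones were miR-455-5p (4.23, above) and miR-125a-3p (3.45 ± 0.86, adjusted p = 0.00126). So were miR-501-5p (3.01 ± 0.87, adjusted p = 0.00475) and miR-532-3p (2.20 ± 0.70, adjusted p = 0.00923, lost without S100 replicate 2), both from CLCN5.

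miR-17-3p (2.31 ± 0.78, adjusted p = 0.0148, lost without S100 replicate 2 or total exRNA replicate 4) and miR-93-3p (2.11 ± 0.64, adjusted p = 0.00659) joined miR-106b-5p, so 3 of 6 minor arms of miR-17/92 and paralogs were higher and 0 lower, beside 27.5% and 11.8% of the 51, with a median of 1.37 beside 0.73. miR-191-3p was higher with a ratio of 6.39 (exact 95% counting interval 1.94 to 33.2), which was lost with the replicate block (adjusted p = 0.0573), with DESeq2 (adjusted p = 0.0632), and without S100 replicate 4 or total exRNA replicate 1 or 2. The 2 lower arms were miR-141-5p, at least 4.92-fold lower (adjusted p = 0.00475), and miR-372-5p, by -1.87 ± 0.73 (adjusted p = 0.0315). The latter was lost with DESeq2 (adjusted p = 0.0632) and without S100 replicate 2 or 3 or total exRNA replicate 3 or 4.

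S100 against P100 set the supernatant beside the pellet spun out of it, again across the 2 preparations. The minor arm was higher in S100 in 8 of 46 hairpins (15.7% of the 51 tested were higher) and lower in 3 (11.8% of the 51). Among arms that sums without S100 also name, 6 were higher and 1 lower. miR-125a-3p had 2 counts beside 289 in P100 and 156 beside 1121 in S100, a ratio of 20.1 (exact 95% counting interval 5.41 to 168). miR-501-5p differed by 3.57 ± 0.90 (adjusted p = 0.00126) and miR-532-3p by 2.11 ± 0.75 (adjusted p = 0.0232). The miR-532-3p call was lost without P100 replicate 1 or 4 or S100 replicate 2 or 3. The lower arm, miR-141-5p, had 2 of 61 counts in P100, and its call was lost without P100 replicate 3. Comparisons named here share libraries, S100 or lysate, and are given side by side for that reason.

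**Figure D4:**
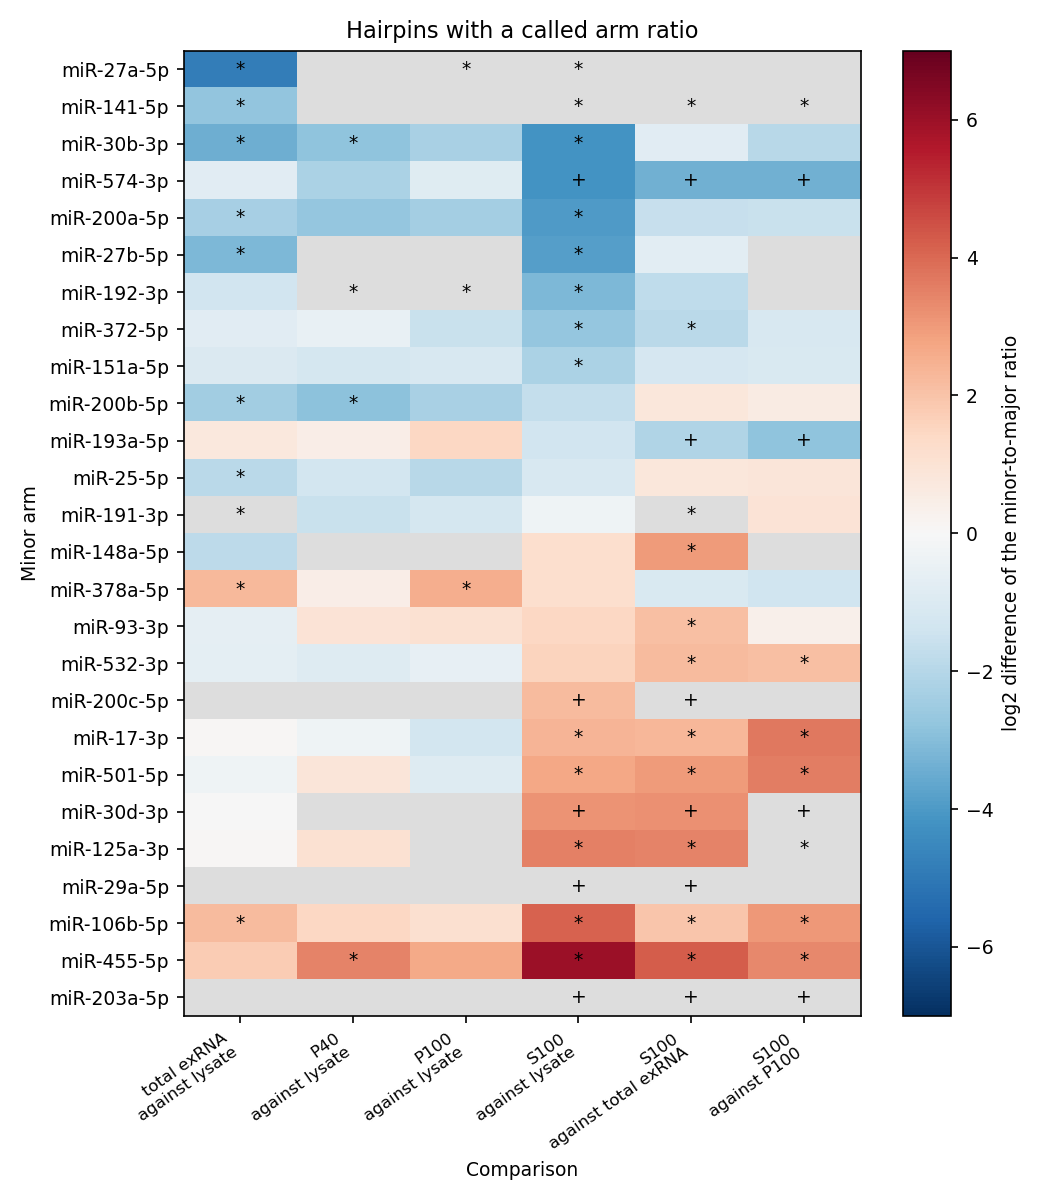
Log2 difference of the minor-to-major ratio for the 26 minor arms called in any of 6 comparisons, ordered by S100 against lysate. Red is a higher and blue a lower minor arm in the first group named, asterisks mark an adjusted p below 0.05, plus signs the same in S100 comparisons of arms that sums without S100 do not name (described only), and grey marks pairs in which a group held at most 3 counts of the minor arm. Asterisks against lysate include those of miR-27a-5p and miR-141-5p, which reached the minimum sum only through their lysate counts and are described only. Most marks lie in the S100 columns, with miR-455-5p red throughout.

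Among all 46 tested hairpins, the share of the minor arm was highest in S100 for 16, in lysate for 15, in P100 for 7, in total exRNA for 6 and in P40 for 2. It was lowest in S100 for 12, in P40 and P100 for 10 each, and in lysate and total exRNA for 7 each. These numbers include 9 arms that sums without S100 do not name. Among the other 37 the share was highest in lysate for 14, in S100 for 12, in P100 for 5, in total exRNA for 4 and in P40 for 2, and lowest in S100 for 10, in P100 for 9, in P40 for 8, in total exRNA for 6 and in lysate for 4.

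Scaled levels of the minor arms themselves could be tested for 28 of the 79, beside 227 miRNAs in all. Against lysate 0 were higher and 4 lower in total exRNA (18.9% of the 227 were higher and 16.3% lower), and 0 higher and 5 lower in P40 (13.7% and 13.2% of the 227). In P100 0 were higher and 7 lower (16.7% and 20.7% of the 227), and in S100 10 were higher and 8 lower (32.2% and 30.0% of the 227). Of the 24 tested arms that sums without S100 also name, 9 were higher and 6 lower in S100. The count filter of these tests can be met by the libraries of a single group, lysate or S100 included. An arm can thus be tested because it is high there, and such calls are not independent of the filter. miR-25-5p was lower in all 4, at log2 changes of -2.71, -1.70, -2.31 and -2.67 in that order. The P40 call of miR-25-5p was lost without lysate replicate 2, with only the 2 groups fitted (adjusted p = 0.0598) and without a low-count filter (adjusted p = 0.133). miR-200b-5p was lower in total exRNA, P40 and S100, and miR-200a-5p in P40, P100 and S100. Of these, the total exRNA call of miR-200b-5p was lost without any 1 lysate library and without total exRNA replicate 1, 2 or 4. It was also lost with scaling by library size alone (adjusted p = 0.12), with DESeq2 (adjusted p = 0.0535) and without a low-count filter (adjusted p = 0.263). The P40 call of miR-200a-5p was lost with the replicate block (adjusted p = 0.0731), with library size alone (adjusted p = 0.0595) and without a low-count filter (adjusted p = 0.0706). The same call was lost without lysate replicate 1 or 3 and without P40 replicate 1, 3 or 4. Its P100 call was lost without P100 replicate 2 or 3.

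The higher arms in S100 included miR-378a-5p (2.69 ± 0.59, adjusted p = 3.78e-04), miR-501-5p (2.62 ± 0.76) and miR-22-5p (2.39 ± 0.77). miR-501-5p and miR-22-5p had 46 and 15 counts in lysate and 745 and 271 in S100. Both arms may have passed the count filter through S100 alone, so no p-value is given for them. The call of miR-22-5p was lost with the replicate block and without lysate replicate 2. For 27 hairpins both arms could be tested. In S100 against lysate both were called in the same direction in 7 and in opposite directions in 4, miR-106b, miR-455, miR-9 and miR-338, of which the direction in miR-9 is fixed by the rule. Only the minor arm was called in 6 and only the major arm in 5.

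In miR-338, from an intron of AATK and known from oligodendrocytes, the minor arm had 3 of 10, 46 of 91 and 20 of 33 counts in lysate. In S100 it had 16 of 1264, 22 of 794 and 10 of 1168. The 5p arm was at 225 ± 126 CPM in lysate and 74.6 ± 26.4 in S100, and the 3p arm at 223 ± 54.8 and 5001 ± 1448. As a single miRNA miR-338-5p fell by 1.81 on the log2 scale (adjusted p = 0.0366). That call was lost with the replicate block (adjusted p = 0.0641), DESeq2 (adjusted p = 0.0854), library size alone (adjusted p = 0.0634) and no low-count filter (adjusted p = 0.331). It was also lost without lysate replicate 2 or 3 or any 1 of the S100 libraries. Counts in the pellets were too few for the test over all groups. With the count minimum asked only of the 2 groups compared, a choice made after seeing the data, the ratio differed by -6.0 ± 0.91 (adjusted p = 1.87e-09). By the same added choice miR-362-3p, another CLCN5 arm, was higher than in lysate both in total exRNA (3.41 ± 0.96, adjusted p = 0.00684) and in S100 (3.29 ± 1.04, adjusted p = 0.00537). It had 0 of 12, 7 of 63 and 5 of 43 counts in lysate, 11 of 20, 14 of 28, 8 of 14 and 7 of 14 in total exRNA, and 42 of 69, 40 of 85 and 28 of 63 in S100, without overlap with lysate.

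The most counted minor arms were not all among those that differed. miR-28-5p was at 23.5% ± 3.07 of its hairpin in lysate, 34.6% ± 12.2 in total exRNA and 15.9% ± 2.69 in S100, and passed the test of the ratio in none of the 7 comparisons. miR-18a-3p ran from 19.6% ± 5.96 in total exRNA to 56.7% ± 13.9 in P100, also with no call. miR-23a-5p was at 4.28% ± 2.52 in lysate and 4.98% ± 0.329 in S100. miR-296-3p, at 19.2% ± 8.08 in lysate and 10.2% ± 1.20 in S100, had too few counts in some groups for the test. For arms such as miR-30a-5p, miR-454-5p, miR-550a-3p, miR-629-3p and miR-769-3p the minor arm had the larger mean share in at least 1 group, but with at most 8 counts of both arms in each library of that group. miR-140-3p outnumbered its partner in S100 replicate 2 (26 of 37) and not in replicates 3 (17 of 38) and 4 (15 of 33). miR-151a-5p had the larger share in lysate, at 62.8% ± 8.17, and the smaller one in S100, at 25.8% ± 2.99.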

How the data were processed

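The authors deposited raw counts for mature miRNAs of each library. The tools named in the submitters' processing notes are Bowtie2, FastQC and cutadapt 1.16, and the build is GRCh38. The annotation release and the treatment of reads matching several miRNAs are not given in the sources used here. A miRNA absent from a file was taken as 0. Depth was 10017 to 225290 counts per library, and intervals and floors (3 counts) cover counting error only.

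Members, lists and families were chosen with earlier results of these data known. Ratios of arms were tested in edgeR 4.0.16 (R 4.3.3) with 2 columns per library, a library effect and a minor-arm effect per group, over all 5 groups. Single miRNAs were tested after TMM scaling and filterByExpr (10 counts, total 15). Both used quasi-likelihood tests, two-sided, with Benjamini-Hochberg adjustment, and were tested on simulated data. DESeq2 1.42.0 was an alternative. Intervals of a ratio are exact at 95% and those of a share are Wilson's. Named arms were the 12 of highest sum, up to 6 called per direction and comparison by size, those outnumbering the major arm in a group mean, and 3 on either side of the minimum sum. Arms named outside this rule, such as miR-93-3p, were chosen after their values were seen.

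No label says that replicates are separate cultures, so p-values measure the spread between these samples. The labels' batch number equals the replicate number and pairs samples. Deviations from the group mean correlated at -0.0301 on average over 32 same-numbered pairs (-0.568 to 0.311).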

Additional observations from a re-analysis of the deposited data

Results flagged for a closer look

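In groups of 4 libraries, a library was singled out where its gap to the nearest of the others exceeded Dixon's 95% value, in 30 groups of named arms and 6 sums. Chance singles out about 1 in 20 groups. The miR-106b-5p share of total exRNA replicate 2 was 27.6% (95% Wilson interval 20.3 to 36.3), above the others of its group. In the same library miR-200a-5p was at 2.26% (0.77 to 6.42), below the others. P40 replicate 4 stood above its group for miR-532-3p at 34.0% (22.4 to 47.8) and for miR-574-3p at 80.0% (54.8 to 93), the latter from 15 counts. Leaving each library out is covered by the ranges given next.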

How the results depend on the processing

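Single calls of an arm ratio, 63 in all, were followed under the alternatives except those that choose the minor arm anew. No call reversed, and 31 were kept under every alternative followed except thinning to 10017 counts. Thinning ended 45 of the 63 and kept 18, and the losses named with single calls above leave it out. The 63 include calls in S100 of arms that sums without S100 do not name, which are described only. Numbers of called arm ratios with 1 library left out were 5 to 11 (10 with all) for total exRNA, 1 to 8 (4) for P40, 0 to 4 (3) for P100 and 15 to 19 (18) for S100, each against lysate, 12 to 20 (17) for S100 against total exRNA and 8 to 12 (11) against P100. P100 against P40 gave 0 in each. Called minor arms ranged over 1 to 4 (4), 4 to 6 (5), 4 to 6 (7) and 14 to 18 (18) against lysate in that order, 12 to 15 (15) and 8 to 13 (12). Summed shares ranged over 4.53 to 4.86% in lysate, 3.11 to 3.42% in total exRNA, 3.55 to 4.26% in P40, 3.82 to 4.28% in P100 and 3.92 to 4.08% in S100.

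Thinning, which removes counts, left ratio calls of 0 for total exRNA, 1 for P40, 0 for P100 and 6 for S100 against lysate, 5 for S100 against total exRNA and 7 against P100. It left 0, 0, 0, 4, 4 and 2 called minor arms. A both-arm minimum of 20 gave ratio calls of 1 in P100 and 11 in S100 against lysate and 7 in S100 against P100, and a minimum of 5 gave 2 in P40. The replicate block gave 2 in P40, and it ended 11 named calls, among them miR-30d-3p and miR-29a-5p. DESeq2 ended 12 named calls. It gave 5 in P100, and called minor arms of 2 in total exRNA and 8 in P40. Fitting only the 2 groups gave ratio calls of 2 in P40 and 18 in S100 against P100, and minor arms of 1 in P40, 2 in P100 and 34 in S100. Library size alone gave 1 minor arm in total exRNA. No low-count filter gave 32 in S100 against lysate and 26 against total exRNA. Without lysate replicate 1, total exRNA replicate 2 and P40 replicate 4, chosen after seeing the data, ratio calls were 2 in P40 and 18 in S100 against P100. Without the 3 hairpins of most counts the summed share was 5.27% in lysate, 3.72% in total exRNA and 6.06% in S100. It was 4.22% in S100 with groups weighted equally, and 5.23% in lysate and 5.00% in S100 with sums taken without S100. Unless said, the cause was not tested. Depth limits the pellets most, where many minor arms had under 10 counts per library.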

Other observations

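Further hairpins could be tested with the count minimum asked only of the 2 groups compared, an alternative chosen after seeing the data. Relative to their major arms, miR-15b-3p (3.46 ± 1.05 on the log2 scale, adjusted p = 0.00371) was higher and miR-331-5p (-3.90 ± 0.94, adjusted p = 1.98e-04) lower in S100 than in lysate. miR-331-5p was also lower than in total exRNA (-2.96 ± 0.92, adjusted p = 0.00783). Both are also named as minor arms by the sums without S100. In edgeR's test, miR-10a-3p was higher in S100 than in P100 (adjusted p = 0.00357). It had 52 of 260 counts in S100 and 0 of 57 in P100, which allows a share of up to 5.26% there.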
